A study of Glycine max with 18 samples.

Results

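The transcripts described here are 200 soybean genes whose level was lower at the reactivation of metabolism than in the imbibed seed in both of the low phytic acid (LPA) mutants studied, TW-1 and TW-1-M. They were chosen from the deposited table of FPKM (fragments per kilobase of transcript, scaled to the number of mapped fragments), with every level taken as log2(FPKM + 1). Of 45955 genes in the table, 27150 had an FPKM of at least 1 in 3 or more of the 18 libraries, and 26995 were left after the candidate genes of the study and the 100 genes most abundant at stage 1 had been set aside. Of the 78 candidate genes 72 could be paired with an identifier of the table and 71 rows were set aside for them, so the unpaired ones may still be among the genes analysed. For each mutant the median of stage 1 was subtracted from the median of stage 2, and 363 genes (1.34%) were lower by 1 or more in both. The 200 with the largest value of the smaller difference were taken as members.

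The starting variety was Taiwan 75, a soybean eaten as a vegetable. Gamma rays gave TW-1, and TW-1-M appeared later within TW-1 without further treatment. Both mutants carry the same small deletion in MIPS1, a gene of myo-inositol phosphate synthesis, which lowers phytate. The labels give TW-1 a very low field emergence and TW-1-M a higher one. Seeds were germinated in the dark on agar, and whole seeds of each mutant were taken as imbibed seeds (stage 1), at the reactivation of metabolism (stage 2) and with a primary root of 1 mm (stage 3). The groups are named by mutant and stage, so that TW-1-M-2 is TW-1-M at stage 2. Each of the 6 groups had 3 libraries. The labels place stage 2 at 12 h after imbibition had ended, the methods of the study give it another time, and which one holds could not be settled. Each mutant is a single line, the parent Taiwan 75 was not analysed here, and no source says whether replicates came from separate seed lots, so that p-values measure only the spread between these libraries, which may be technical.

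A dry seed carries a store of messenger RNA laid down during maturation. Much of it encodes late embryogenesis abundant (LEA) proteins, small heat shock proteins and storage proteins, which protect or feed the embryo, and these maturation transcripts are known to be lost in the hours after imbibition as new transcription begins. Abscisic acid (ABA) holds the maturation programme in place, and its breakdown accompanies germination. In whole seeds, fewer cells of a type and less RNA per cell cannot be told apart.

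The summed FPKM ranged from 683231 to 1296622 over the libraries, and the table holds no counts, so that the number of reads behind a value is not known from it. Read totals given by the study were not used here. Replicate 1 of TW-1-2 and replicate 1 of TW-1-3 stood apart from the other libraries of their groups. The members made up 2.27% of the summed FPKM in TW-1-2 replicate 1, against 1.18% and 1.38% in the others, and 1.1% in TW-1-3 replicate 1, against 0.26% and 0.359%. In 167 members TW-1-2 replicate 1 was the highest of its group, and in 180 members TW-1-3 replicate 1 was, while over all genes tested these shares were 40.1% and 44.6%. In 121 members the level of TW-1-2 replicate 1 reached at least the lowest stage 1 library of TW-1, and in 25 members it was above all of them. With 1 high library the median of 3 is the higher of the other 2, however high that library is. Where TW-1-2 replicate 1 was the highest, the choice thus rested on the higher of the other 2 libraries of TW-1-2. With means in place of medians 103 of the 200 were still past the threshold, and without TW-1-2 replicate 2 or replicate 3 the numbers were 107 and 106.

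Markers of seed, the labelled tissue, were present at every stage and had their highest sum in a stage 1 library in each mutant. The 23 genes found for the list (among them glycinin, beta-conglycinin, Kunitz and Bowman-Birk inhibitors and oleosin) summed to between 6400.4 and 12768 FPKM in TW-1-1, between 4378 and 9780.5 in TW-1-2 and between 1266.5 and 5804 in TW-1-3. In TW-1-M the sums were 7805 to 8205 at stage 1, 1556 to 2022.5 at stage 2 and 226 to 884 at stage 3. In TW-1-2 replicate 1 and TW-1-3 replicate 1 they summed to 9780.5 and 5804, the highest of each group. Of these markers 2 were at 0 in every library, and 1, KTI1, is itself a member. Markers of green tissue (9 genes) summed to 57 to 465 FPKM at stage 1 and to 953 to 2764 at stage 3 apart from TW-1-3 replicate 1, where they summed to 118. Markers of growing tissue (19 genes, 1 of them a member, histone H3.3) lay between 966 and 2265 in every group. The part of these changes in seed makeup in the levels of the members was not tested.

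The members accounted for 2.55% ± 0.348 (SD, n = 3) of the summed FPKM in TW-1-1, 1.61% ± 0.58 (SD, n = 3) in TW-1-2 and 0.573% ± 0.459 (SD, n = 3) in TW-1-3. In TW-1-M their share was 2.2% ± 0.455 (SD, n = 3) at stage 1, 0.753% ± 0.174 (SD, n = 3) at stage 2 and 0.292% ± 0.0925 (SD, n = 3) at stage 3. No later library of TW-1-M overlapped with one of its stage 1, whereas TW-1-2 replicate 1 lay within the range of TW-1-1.

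**Figure D1:**
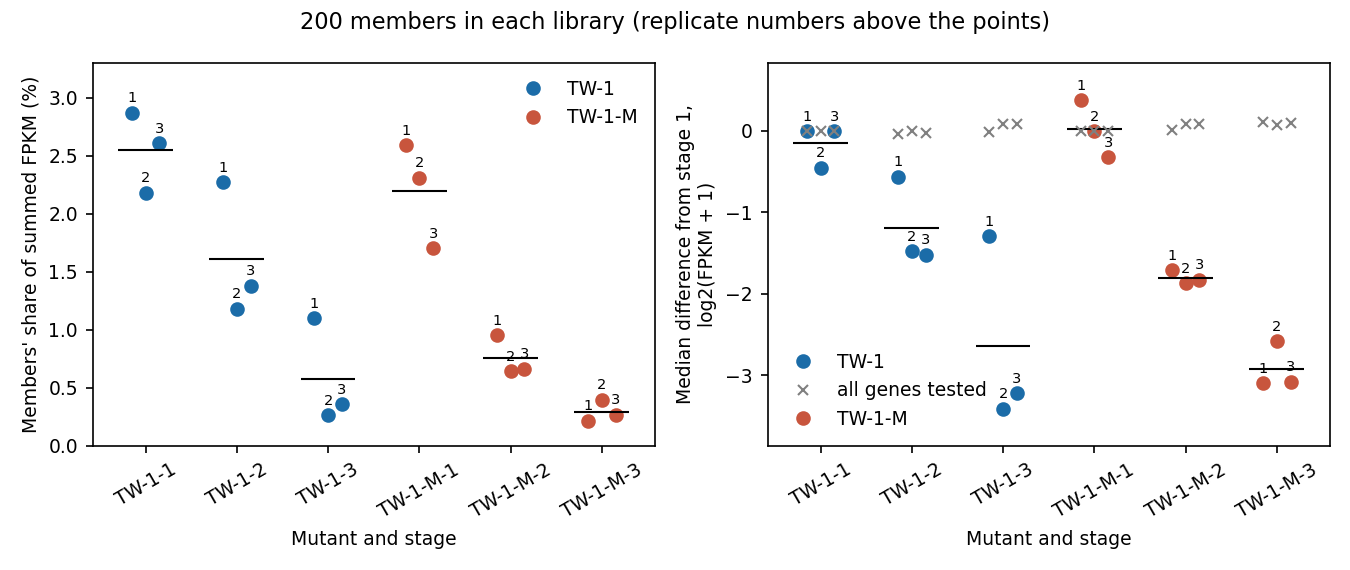
Share of the summed FPKM held by the 200 members (left, percent) and their median difference from the stage 1 median of the same mutant (right, log2(FPKM + 1)), 1 point per library with its replicate number, horizontal lines for group means and crosses for the median over all 27150 genes tested. The share is lower at each later stage in both mutants, and replicate 1 sits above its group in TW-1-2 at 2.27% and in TW-1-3 at 1.1%.

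Because stages 1 and 2 chose the members, the differences between these stages are given as a description with no test. Over the members the median difference was -1.39 for TW-1 and -1.84 for TW-1-M on the log2(FPKM + 1) scale, beside -0.01 and 0.06 over all genes tested. Singly, TW-1 had 2.17% and TW-1-M 8.24% of all genes lower by 1 or more. The smaller difference of each gene ran from 1.16 to 2.62 with a median of 1.36. In TW-1-M 172 members had every stage 1 library above every stage 2 library, and in TW-1 73 had, where all genes gave 23% and 10.2%. The same held in both mutants for 68 members. In 161 members the difference was larger in TW-1-M, in 38 it was larger in TW-1, and in 34 members the excess in TW-1-M was 1 or more. Among other genes, 1781 were lower by 1 or more in TW-1-M only and 186 in TW-1 only. A larger difference in TW-1-M was thus not particular to the members. Levels at stage 1 spanned a wide range, from a mean FPKM of 3.86 over the 6 libraries to 998.8, with a median of 52.9.

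**Figure D2:**
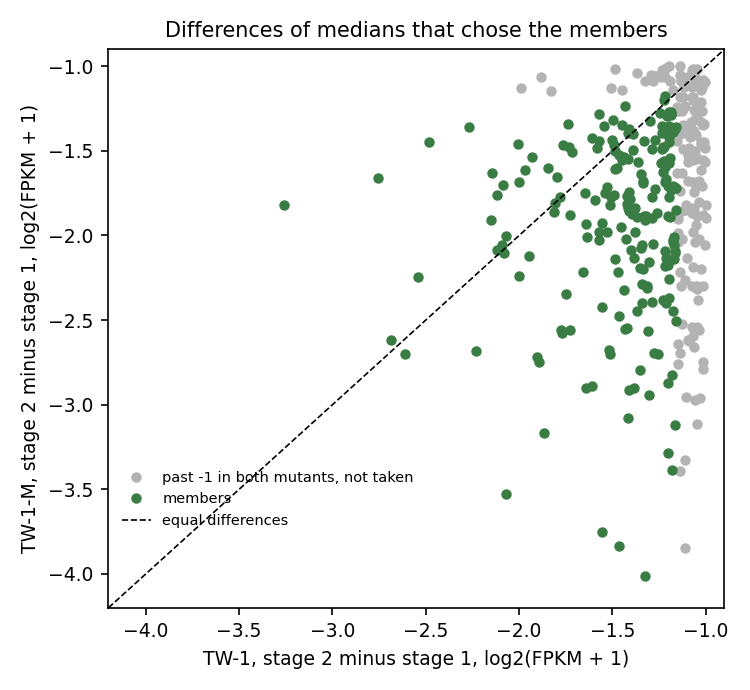
Difference of medians between stage 2 and stage 1 in TW-1 (horizontal axis) and TW-1-M (vertical axis), both on the log2(FPKM + 1) scale, for the 200 members (green) and the 163 other genes past -1 in both mutants (grey). Points below the dashed line have a larger difference in TW-1-M, as 161 members do. Not drawn are 1781 genes lower by 1 or more in TW-1-M only and 186 in TW-1 only.

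Of the members 170 could be matched to a gene symbol and 81 to a name or description. The descriptions come from gene lists that the study drew up for differences between the mutants, so they favour genes that differ between TW-1 and TW-1-M, and the other 119 members are reported by number only. In 27 members the description or symbol fell into one of the functional lists used below. Among all 3869 annotated genes tested 2.09% were members.

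The gene with the largest smaller difference was LOC100816575, which has no description and was picked after its values were seen. In TW-1 its FPKM was 111, 15.5 and 53.3 at stage 1, 22.4, 7.44 and 4.67 at stage 2, and 5.65, 0.54 and 0.57 at stage 3. In TW-1-M it was 117, 48.8 and 41.7 at stage 1, 9.88, 3.66 and 7.1 at stage 2, and 0.25, 0.2 and 0.29 at stage 3. The stages did not overlap in TW-1-M, while in TW-1 the lowest library of stage 1 was below the highest of stage 2. The ratio of the stage 1 median to the stage 2 median was 7.17 for TW-1 and 6.87 for TW-1-M.

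LEA and seed maturation proteins, which are hydrophilic proteins that accumulate late in seed development, had 3 members among 32 genes tested, 9.38%. The list was drawn by pattern, so it also holds LOC100794005, described as GEM-like protein 5, and misses MP2, described as a maturation polypeptide. Of these 32 genes, 16 were lower by 1 or more at stage 2 in both mutants, and 12 of the 16 had been set aside with the candidate genes of the study or the most abundant transcripts. The list median between stage 1 and stage 2 was -1.02 for TW-1 and -2.77 for TW-1-M. The gene LOC547494, a 24 kDa seed maturation protein, was among the 5 members with the highest levels at stage 1. Its FPKM in TW-1 was 1724, 506 and 1646 at stage 1, 526, 334 and 482 at stage 2, and 175, 90.4 and 41.6 at stage 3. In TW-1-M its FPKM was 544, 852 and 529.8 at stage 1, 67.85, 90.4 and 187 at stage 2, and 18.6, 24.1 and 31.45 at stage 3. Both mutants therefore had lower medians at each later stage, and in TW-1 only 1 stage 1 library, replicate 2, lay within the range of stage 2. The seed maturation protein PM27 had 659, 221 and 701 FPKM in TW-1-1, 247, 129.8 and 281 in TW-1-2, and 14.9, 42.1 and 21.1 in TW-1-3. In TW-1-M the same gene had 57.1, 226.5 and 178 FPKM at stage 1, 22.8, 22.6 and 34.4 at stage 2, and 4.05, 3 and 5.69 at stage 3. Unlike most members, PM27 was lowest in replicate 1 of TW-1-3.

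The gene DEHYDRIN encodes a dehydrin, a LEA protein that binds water and membranes in drying tissue. Its FPKM was 547, 306 and 812 in TW-1-1, 475, 225 and 224 in TW-1-2, and 227, 35.6 and 22.7 in TW-1-3. The TW-1-M libraries had 387, 468 and 294 FPKM at stage 1, 43.4, 71.5 and 58.9 at stage 2, and 2.86, 9.92 and 1.78 at stage 3. At stage 1 the mutants overlapped, and at stages 2 and 3 every TW-1-M library lay below every TW-1 library.

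Heat shock proteins and chaperones had 5 members among 82 genes tested, and 10 of the 82 were lower by 1 or more in both mutants. Of the 5, 4 encode small heat shock proteins, which keep other proteins from aggregating, and 1 encodes heat stress transcription factor A-8. The chloroplastic small heat shock protein LOC100788249 had 85.1, 214 and 165 FPKM in TW-1-1, 109.6, 48.4 and 33.9 in TW-1-2, and 160.0, 3.54 and 12.1 in TW-1-3. In TW-1-M its levels were 25.1, 63.4 and 46.5 FPKM at stage 1, 8.35, 6.87 and 10.9 at stage 2, and 0.84, 0.76 and 1.2 at stage 3. Replicate 1 of TW-1-3 was thus at the level of stage 1 for this gene. The 18.2 kDa class I heat shock protein LOC100500307 had 645, 158 and 967 FPKM in TW-1-1, 572, 241 and 187 in TW-1-2, and 52.2, 28.4 and 11.6 in TW-1-3. In TW-1-M it had 305, 302 and 168 FPKM, then 22, 34.75 and 84.7, and then 23, 12 and 11.4. Its stage 1 and stage 2 ranges overlapped in TW-1 and were apart in TW-1-M. The ratio of the stage 1 to the stage 2 median was 2.68 for TW-1 and 8.68 for TW-1-M. For the 17.5 kDa class I protein LOC100789931 the ratios were 2.29 and 17.9, and for the 17.4 kDa class III protein gene17911 they were 2.8 and 5.76. The ratios of the factor A-8 gene, gene14093, were 2.84 and 5.96.

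The dehydration-responsive element-binding protein 2D gene LOC100797850 was the only member among 32 genes of ethylene response and AP2 factors. Factors of this DREB2 group switch on drought and heat responses in Arabidopsis. Its FPKM was 613, 167 and 561 in TW-1-1, 331, 139 and 104 in TW-1-2, and 35.4, 8.43 and 3.01 in TW-1-3. In TW-1-M it was 24.4, 141 and 50.4 at stage 1, 2.63, 22.4 and 9.87 at stage 2, and 5.89, 4.12 and 1.09 at stage 3. Every TW-1 library of stages 1 and 2 lay above 100 FPKM, and of TW-1-M only 1 library of stage 1 did.

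Genes of ABA and of type 2C protein phosphatases had 2 members among 16 tested. The probable protein phosphatase 2C 39 gene LOC100789914 had 122.7, 56.2 and 139.6 FPKM in TW-1-1, 53.6, 33.4 and 38.8 in TW-1-2, and 28.05, 11.5 and 10.05 in TW-1-3. In TW-1-M it had 88.55, 80.8 and 73.3 FPKM, then 19.3, 17.6 and 28.7, and then 7.98, 10.4 and 7.05. Stages 1 and 2 did not overlap in either mutant. LOC100170674 encodes ABA 8'-hydroxylase, the enzyme that starts the breakdown of ABA. Its FPKM was 21.4, 23.4 and 6.82 in TW-1-1, 33.6, 8.62 and 7.4 in TW-1-2, and 12.9, 4.71 and 10.6 in TW-1-3. In TW-1-M the values were 92.9, 40.75 and 21.75 at stage 1, 34.7, 15.55 and 17.5 at stage 2, and 4.88, 17.9 and 19.2 at stage 3. Here the stages overlapped in both mutants, and the medians of stage 3 were above those of stage 2 by 0.27 for TW-1 and 0.03 for TW-1-M on the log2 scale, less than the spread between libraries. By the rule, none of the 31 genes of gibberellin, auxin, cytokinin and brassinosteroid tested was a member, nor was any of 46 glutathione and antioxidant genes or of 74 genes of ribosomes, translation and RNA binding that the lists cover. In both the hormone and the antioxidant list 2 genes were lower by 1 or more in both mutants and had been set aside by the rule, and in the ribosome list 1 gene was past the threshold and not taken. The glutathione S-transferase gene GSTF5, the member with the second highest mean level at stage 1, carries no description. Its symbol was not matched by the list patterns, so the count for the antioxidant list leaves it out.

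Storage proteins, proteases and inhibitors had 2 members among 66 genes tested, LOC100813415 and LOC100780895, both described as vicilin-like antimicrobial peptides 2-2, relatives of the vicilin storage proteins. The list patterns did not take in the members KTI1, treated below, and BG7S-2, so this count can be too low. They are close relatives by description, so reads could have been shared between them and their values are not independent. LOC100813415 had 82.6, 30.45 and 127 FPKM in TW-1-1, 29.3, 24.3 and 150.2 in TW-1-2, and 3.4, 3.18 and 4.26 in TW-1-3. In TW-1-M it had 16.8, 159.8 and 79.8 FPKM at stage 1, 7.03, 4.66 and 3.02 at stage 2, and 0.42, 0.35 and 0.81 at stage 3. Replicate 3 of TW-1-2 exceeded every TW-1-1 library, whereas in TW-1-M all stage 2 libraries were below all stage 1 libraries. The ratios of the stage 1 to the stage 2 medians were 2.82 for TW-1 and 17.1 for TW-1-M, and for LOC100780895 they were 2.53 and 21. No other annotated member differed more between the mutants in its change from stage 1 to stage 2.

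KTI1 carries the symbol of a Kunitz trypsin inhibitor, a seed protein that blocks digestive proteases, although the description matched to it in the study is that of an uncharacterized gene. Its FPKM was 256, 265 and 313 in TW-1-1, 64.4, 60.3 and 53 in TW-1-2, and 148, 4.68 and 22.2 in TW-1-3. TW-1-M gave 254, 247 and 121 FPKM at stage 1, 103, 72.2 and 63.5 at stage 2, and 7.14, 36.2 and 2.47 at stage 3. The stages 1 and 2 were apart in both mutants, and in TW-1 replicate 1 of stage 2 was close to the other replicates, unlike in most members.

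Galactinol synthase makes the first committed sugar of the raffinose family, which builds up in maturing soybean seed. The galactinol synthase 2 gene gene8417, the single member of 14 genes in the raffinose, sucrose and trehalose list, had 39.5, 8.93 and 27.4 FPKM in TW-1-1, 10.7, 5.69 and 16.4 in TW-1-2, and 1.34, 1.69 and 0.66 in TW-1-3. Its TW-1-M levels were 2.64, 6.17 and 6.51 FPKM at stage 1 and 0.74, 0.73 and 0.69 at stage 2. Of the 14 genes 5 were lower by 1 or more at stage 2 in both mutants, and 4 of these had been set aside by the rule. A second gene with the symbol GOLS, chosen after its values were seen, had stage 1 medians 2.99 and 4.09 times those of stage 2 in TW-1 and in the other mutant.

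Transcription factors outside the AP2 group had 5 members among 258 tested. MYB92 had 254, 204 and 169 FPKM in TW-1-1, 292, 56.1 and 31.3 in TW-1-2, and 122, 15.2 and 16.1 in TW-1-3. In TW-1-M it had 319, 312.5 and 132 FPKM, then 110.1, 102 and 81.5, and then 5.55, 18.4 and 24.3. Replicate 1 of TW-1-2 was above all of stage 1 for MYB92, and the other 2 were below it. WRKY6 had 693, 283 and 775 FPKM in TW-1-1, 297, 230.3 and 317 in TW-1-2, and 252, 48 and 37 in TW-1-3. In TW-1-M the WRKY6 values were 167, 267 and 186 FPKM, then 31.3, 42.9 and 62.7, and then 9.6, 16.4 and 17. Its TW-1-M libraries lay below those of TW-1 at every stage. NAC2 had the highest mean level of all annotated members at stage 1. It had 1255, 525 and 946 FPKM in TW-1-1, 1037, 330.2 and 411 in TW-1-2, and 262, 93.5 and 105 in TW-1-3, beside 1568, 935 and 763, then 306, 237 and 273, and then 88.5, 173 and 73.7 in TW-1-M. The mutants overlapped for NAC2 at stages 1 and 3.

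**Figure D3:**
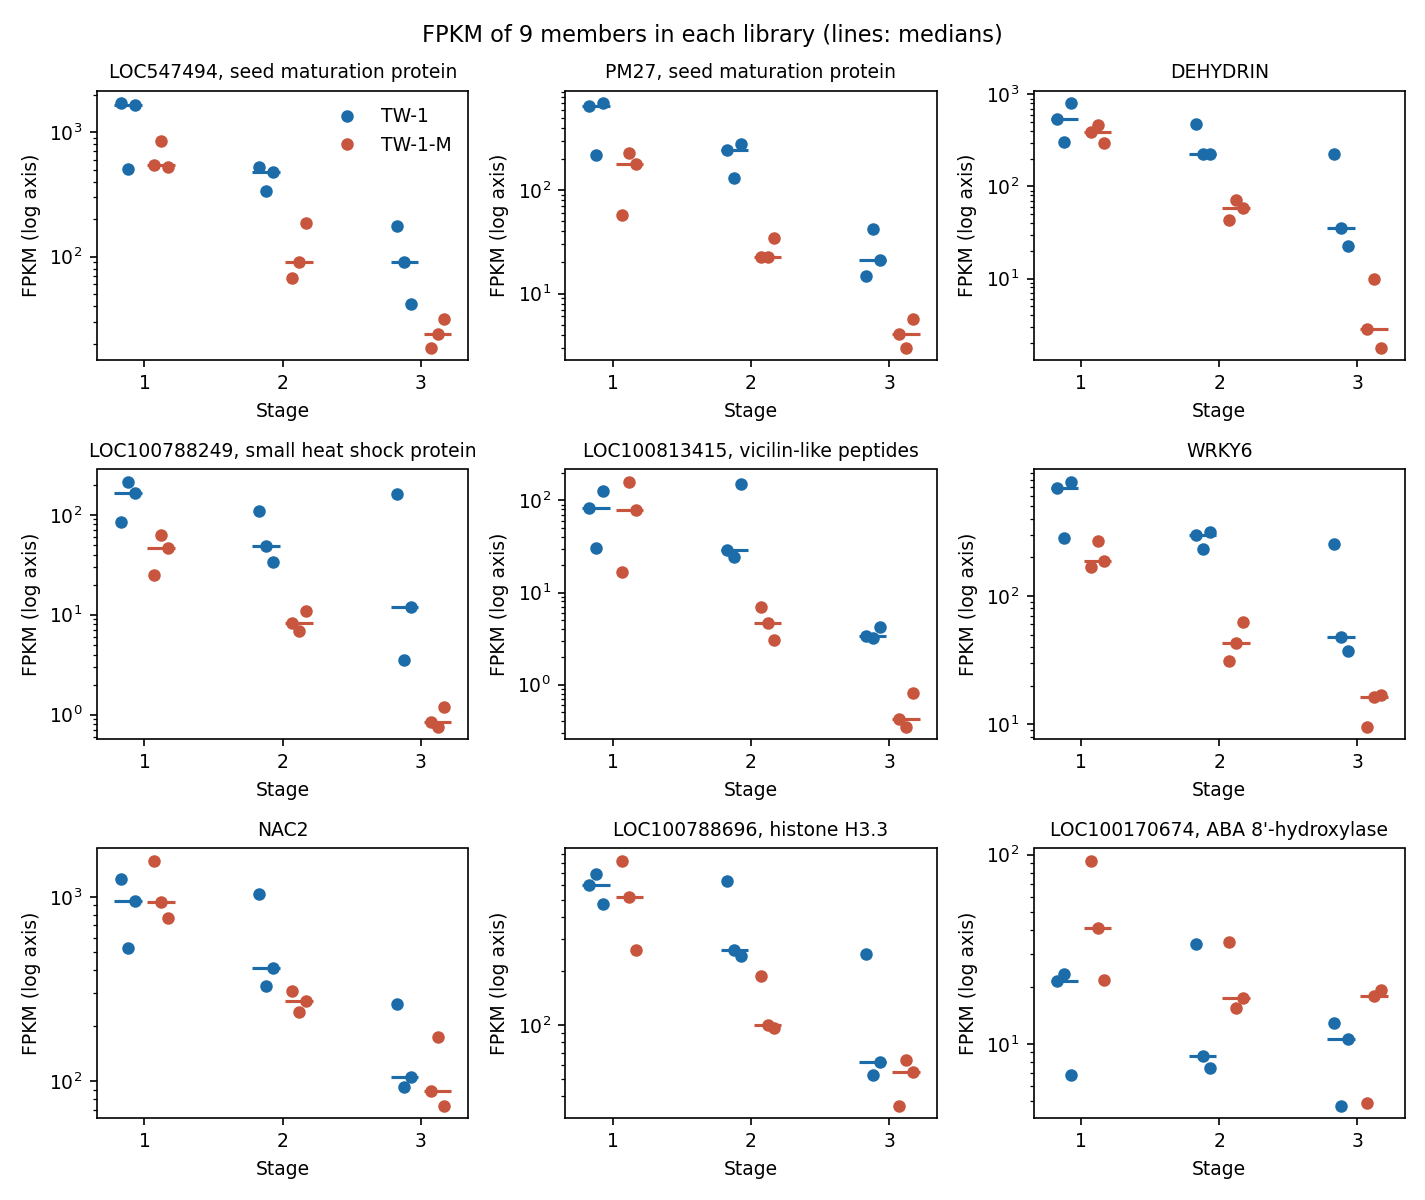
FPKM on a log axis against stage for 9 members, 1 point per library, with a short line for the median of each group (blue TW-1, red TW-1-M). LOC547494, PM27, DEHYDRIN and WRKY6 have lower medians at each later stage in both mutants, whereas ABA 8'-hydroxylase (LOC100170674) has stage 3 medians level with those of stage 2.

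LOC100791834 encodes a WD-40 repeat protein like MSI2, whose relatives bind histones. It had 240.3, 186 and 245 FPKM in TW-1-1, 91, 55.65 and 55.1 in TW-1-2, and 60.1, 19.5 and 14.7 in TW-1-3. In TW-1-M it had 107, 92.75 and 56.3 FPKM, then 21.1, 21.6 and 41.2, and then 20.4, 17.5 and 18.2. Its stages 1 and 2 were apart in both mutants. The gene LOC100788696, chosen after its values were seen, encodes histone H3.3, a histone H3 variant placed outside replication. It had stage 1 medians 2.29 times those of stage 2 in TW-1 and 5.21 times in TW-1-M, and the several H3 genes of soybean are near-identical, so that its FPKM is uncertain.

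Protein kinases had 3 members among 194 tested, 1.55%, of which LOC100784173 and LOC100779316 are CBL-interacting kinases, the partners of calcineurin B-like calcium sensors. LOC100779316 had 40.7, 24.1 and 41.9 FPKM in TW-1-1, 15.9, 11.1 and 16.1 in TW-1-2, and 3.86, 1.39 and 1.56 in TW-1-3. In TW-1-M it had 35.2, 35.5 and 25.9 FPKM, then 5.66, 3.29 and 3.7, and then 0.92, 1.15 and 0.47. Each stage was apart from the one before it in both mutants. Transporters and channels had 3 among 101, 2.97%, 1 of which, the palmitoyl-acyl carrier protein thioesterase LOC100781381, is in that list through the word carrier and is also 1 of the 2 members among 116 oil body and lipid genes. The other members of these lists were the kinase LOC100802176 (CDL1-like), the transporter genes LOC100785476 and LOC100805891 and the acyltransferase LOC100808657, with differences between stages 2 and 1 of -1.38 to -1.17 in TW-1 and -2.26 to -1.71 in TW-1-M. The ubiquitin and F-box list had 2 of 71, the F-box gene LOC100781713 and LOC100776003, a RING-type ubiquitin ligase like ATL23. LOC100776003 had 44.5, 43.4 and 22.7 FPKM in TW-1-1 and 380.3, 102 and 138 in TW-1-M-1, so that it was 1 of the 37 members with a higher median in TW-1-M at stage 1. The nitrate and peptide transporter relative LOC100787428, of the NRT1/PTR family, had the largest difference of all members in TW-1, at -3.26, against -1.82 in TW-1-M. Its FPKM was 113, 19.2 and 110.0 in TW-1-1, 47.3, 6.58 and 10.6 in TW-1-2, and 6.03, 0.45 and 0.67 in TW-1-3, while no TW-1-M library was above 12.1. The remaining members among the 10 leading annotated ones were the uncharacterized genes LOC100305565 and LOC102670090, a vinorine synthase-like acyltransferase (LOC102670206), a cytochrome P450 (LOC100809526) and a laccase (LOC100796956), an oxidase of phenolic compounds.

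Of the 5 annotated members with the highest levels at stage 1, LOC100808941 and LOC100306181 are uncharacterized and went in opposite directions between the mutants. LOC100808941 had 1509.5, 482 and 1379 FPKM in TW-1-1, 558, 355 and 468 in TW-1-2, and 33.6, 42.6 and 5.09 in TW-1-3, and it was lower in TW-1-M, with 48.4, 277 and 191, then 6.25, 13.3 and 38.5, and then 0.88, 0.76 and 1.32. LOC100306181 had 287, 394 and 298 FPKM in TW-1-1 and 1632, 869 and 588 in TW-1-M-1, without overlap. At stage 2 it had 276, 108 and 97.9 FPKM for TW-1 and 302, 339.8 and 169.9 in TW-1-M. For GSTF5 the stage 1 levels were 996, 948 and 602 FPKM in TW-1 and 1608, 1241 and 558 in TW-1-M, and TW-1-3 replicate 1, at 1664 FPKM, was above all of them.

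At stage 3 nearly all members were lower still. The medians of stage 3 were below those of stage 2 in both mutants for 181 members, a relation found for 31.6% of all genes tested. In TW-1 142 members were lower by 1 or more (9.02% of all genes) and 3 were higher by 1 or more (12.2%). In TW-1-M 113 were lower by 1 or more (5.13%) and 0 were higher by as much (4.38%). The median of the members was -1.51 for TW-1 and -1.09 for TW-1-M, whereas all genes had a median of 0.11 in TW-1 and near 0 in TW-1-M. Counted over libraries, 74 members for TW-1 and 138 for TW-1-M had every stage 3 library below every stage 2 library, where all genes gave 11.2% and 15.5%, and 0 members had every one above (10.5% and 15% of all genes). The TW-1 value rests in part on which libraries are used, since without TW-1-3 replicate 2 the median was -0.76 and 88 members were lower by 1 or more, and without replicate 3 the median was -0.99 and the number 97. Stage 2 values also chose the members, so no test is given. Against stage 1, which also chose the members, the median was -2.98 for TW-1 and -3.02 for TW-1-M, and 193 and 199 members were lower by 1 or more. Over all 27150 genes tested the medians were 0.1 and 0.09, and 4702 and 4555 genes were lower by as much. The median FPKM of the members was 65.3, 23.5 and 6.26 over the stages in TW-1 and 38.1, 8.58 and 2.87 in TW-1-M, so that at stage 3 the members were in TW-1 near the 5.92 of all genes tested and in TW-1-M below their 5.84.

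Both mutants had a higher median at stage 3 than at stage 2 in 5 members, in 9 only TW-1 had, and in 4 only TW-1-M had. The 5 were LOC102659929, LOC100803164, 2 genes known only by the numbers XLOC_007664 and XLOC_021272 in the table, and ABA 8'-hydroxylase, the only one with a description. LOC102659929, chosen after its values were seen, had 7.55, 3.55 and 3.5 FPKM in TW-1-2 and 36, 1.16 and 7.8 in TW-1-3, and 12, 2.8 and 2.19 in TW-1-M-2 and 5.75, 9.69 and 0.3 in TW-1-M-3. Its libraries overlapped in both mutants. LOC100785797, chosen in the same way, had the largest increase of the median in TW-1, of 1.72, with 56.6, 1.37 and 0.33 FPKM at stage 2 and 10.7, 0.22 and 6.8 at stage 3, so that the ranges overlapped here too.

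**Figure D4:**
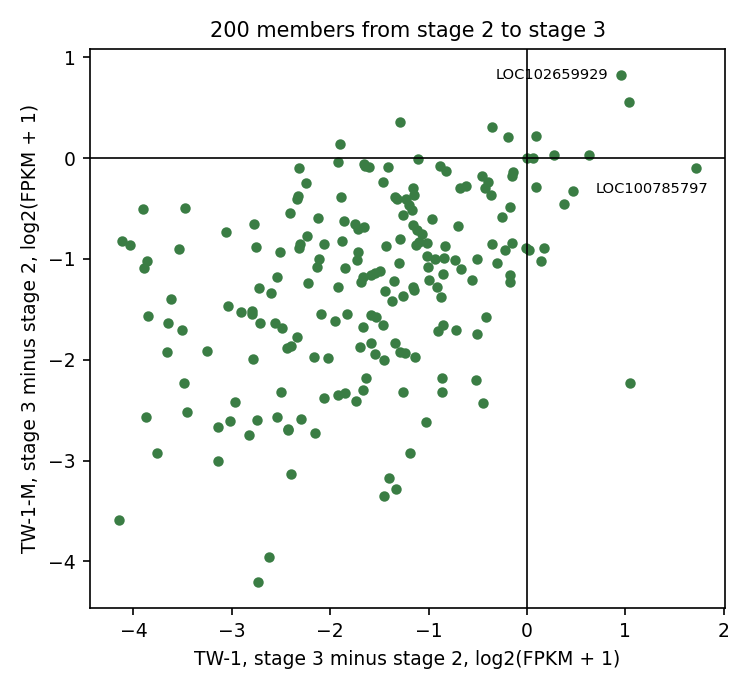
Difference of medians between stage 3 and stage 2 in TW-1 (horizontal axis) and TW-1-M (vertical axis), on the log2(FPKM + 1) scale, 1 point per member. Of the 200 points 181 lie below 0 on both axes, and LOC102659929 and LOC100785797 are among the few to the right of 0.

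The members differed between the mutants already at the stages that chose them, which again is given with no test. At stage 1 163 members had a lower median in TW-1-M, and at stage 2 169 had, while over all genes 52.1% and 45.3% were lower. The median difference of TW-1-M from TW-1 was -0.65 at stage 1 and -1.09 at stage 2 on the log2(FPKM + 1) scale, beside -0.02 and 0.08 over all genes. Every TW-1-M library was below every TW-1 library in 52 members at stage 1 (13.2% of all genes) and in 118 members at stage 2 (21.5%). The opposite was found in 8 members at stage 1 (8.45%) and in 0 at stage 2 (25.7%). The stage 1 value ranged from -0.83 to -0.30 when single libraries were left out.

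The rule used no level of stage 3 to rank genes. Stage 3 entered through the filter on low values and through the candidate genes set aside, which the study had picked for differences between the mutants, so genes with such differences are missing from the members. The mutants were tested at stage 3 with limma, two-sided, on 3 libraries against 3 over all 27150 genes. A differentially expressed gene (DEG) had an unadjusted p below 0.05 and a log2 fold change beyond 1 in either direction, thresholds the study also names, although its methods mention a corrected p as well. Of the members 39 (19.5%) were DEGs lower in TW-1-M, beside 3.05% of all genes tested, and 0 were higher, beside 1.99%. At an adjusted p below 0.05 (limma, Benjamini-Hochberg over all genes) 0 members and 5 genes in all passed (0.0184%), the smallest adjusted p of a member was 0.149, and 42 members had an unadjusted p below 0.05 (8.87% of all genes). Every TW-1-M library was below every TW-1 library in 67 members (11.4%) and above in 0 (9.86%). The log2 fold change was negative in 193 members (49.4% of all genes), with a median of -0.96 beside 0.01 over all genes. Replicate 1 of TW-1-3 contributed much to this median. Without it the median was -0.38, 148 members were negative (52.2% of all genes), and 35 members were DEGs (2.22% of all genes), 32 of them among the 39. Without TW-1-3 replicate 2 the number was 78, and without TW-1-M-3 replicate 3 it was 24. The 163 genes past the threshold but not taken had 25 DEGs lower (15.3%) and 0 higher at stage 3, with a median of -0.82. The 1781 genes lower by 1 or more at stage 2 in TW-1-M only had 233 lower (13.1%) and 6 higher, with a median of -0.65. The 186 genes lower by as much in TW-1 only had 15 lower (8.06%) and 1 higher, with a median of -0.49. Without TW-1-3 replicate 1 the medians of these groups were, in the same order, -0.27, -0.24 and -0.09. The shares of the members and of these groups were not compared by a test.

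**Figure D5:**
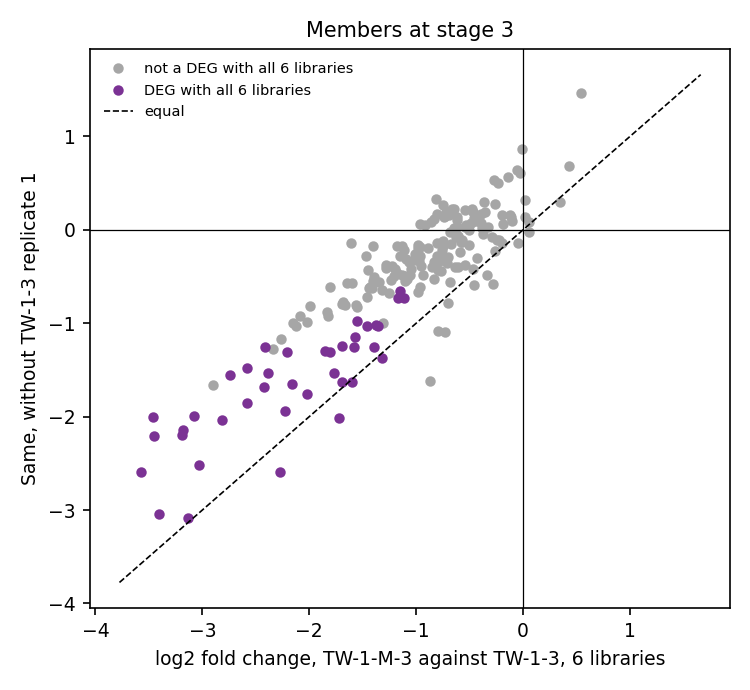
Log2 fold change of TW-1-M-3 against TW-1-3 with all 6 libraries (horizontal axis) and without TW-1-3 replicate 1 (vertical axis), 1 point per member, with the 39 DEGs of the full comparison in purple. Most points lie above the dashed line of equal values, so that the difference was less negative or higher without that library, and the medians are -0.96 and -0.38.

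The annotated DEG with the largest difference at stage 3 was DEHYDRIN, with the values given above, at a log2 fold change of -3.58 ± 0.93 (SE, limma, unadjusted p = 0.00664, adjusted p = 0.538). LOC100788249, the chloroplastic small heat shock protein, followed at -3.46 ± 1.20 (SE, limma, unadjusted p = 0.0241, adjusted p = 0.538), and without TW-1-3 replicate 1 it was at -2.002. The uncharacterized LOC100808941 was at -3.41 ± 0.73 (SE, limma, unadjusted p = 0.00249, adjusted p = 0.434) and LOC100813977 at -3.03 ± 0.65 (SE, limma, unadjusted p = 0.00246, adjusted p = 0.431). The nodulin-21-like gene LOC100810586 was at -3.19 ± 1.013 (SE, limma, unadjusted p = 0.0169, adjusted p = 0.538), with 119.8, 10.5 and 19.8 FPKM in TW-1-3 and 1.55, 8.53 and 0.56 in TW-1-M-3. All 5 had every TW-1-M-3 library below every TW-1-3 library, as 38 of the 39 DEGs did. All 5 were DEGs without TW-1-3 replicate 1 as well.

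The 3 LEA and seed maturation members were all DEGs lower in TW-1-M at stage 3. PM27 differed by -2.27 ± 0.43 (SE, limma, adjusted p = 0.317) and LOC547494 by -1.81 ± 0.54 (SE, limma, adjusted p = 0.538). Of the 32 genes in the whole list, GEM-like protein 5 included, 27 were lower DEGs and 0 higher, with a list median of -3.28, though 0 passed at the adjusted p. The descriptions behind the lists favour genes that differ between the mutants, so part of this count may come from how the list was made. Of all 3869 annotated genes tested 288 were lower DEGs and 193 higher, with a median of 0.14. Both vicilin-like members were DEGs as well, LOC100813415 at -1.60 ± 0.23 (SE, limma, adjusted p = 0.149) and LOC100780895 at -1.77 ± 0.29 (SE, limma, adjusted p = 0.209). These values were the same or nearly so without TW-1-3 replicate 1, at -1.63 and -1.54. In the storage list of 66 genes 10 were lower DEGs and 0 higher, to be read beside the same counts of the annotated genes. Seed markers summed to 1266.5 to 5804 FPKM in TW-1-3 and to 226 to 884 in TW-1-M-3, and their part in these differences was not tested.

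Of the heat shock members 2 of 5 were DEGs. In the list of 82 genes 16 were lower and 6 higher, beside 288 lower and 193 higher of the 3869 annotated genes tested. The 17.5 kDa protein LOC100789931 was at -1.55 ± 0.49 (SE, limma, adjusted p = 0.538) and, without TW-1-3 replicate 1, at -0.98, under the fold threshold. The class III protein gene17911 had 3.97, 3.55 and 1.3 FPKM in TW-1-3 and 2.25, 0.92 and 1.35 in TW-1-M-3, which overlapped. WRKY6 was the single DEG of the 5 transcription factor members, at -2.38 ± 0.73 (SE, limma, adjusted p = 0.538), or -1.53 without TW-1-3 replicate 1. Neither ABA member, the DREB2D gene, the galactinol synthase gene nor any of the kinases was a DEG. NAC2 differed by -0.39 ± 0.52 (SE) and ABA 8'-hydroxylase by 0.43 ± 0.58 (SE), in both cases less than its SE. Among the named genes the direction of 4 others with a small negative difference, LOC100791834, LOC100809526, GSTF5 and LOC100785476, rested on TW-1-3 replicate 1, and so did that of NAC2.

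The members were not alike in their replicates. In 140 members TW-1-M-1 replicate 1 was the highest of its group (43.1% of all genes), while in 35 it was the lowest (40.0% of all genes), at a median of 0.282 times the mean of the other 2 libraries. This division was made after the values were seen and is a description with no test. Of the 35, 33 were also lowest in TW-1-1 replicate 2, at a median of 0.385 times the other 2. Of the 140, 68 were, beside 41.1% of all genes. The 35 included PM27, the DREB2D gene, both vicilin-like genes, both galactinol synthase genes, WRKY6, LOC100788249, gene17911 and, outside the naming rule, LOC100813655, an HVA22-like gene and so a relative of an ABA-induced gene of barley. The 140 included NAC2, MYB92, KTI1, GSTF5, histone H3.3, ABA 8'-hydroxylase and the protein phosphatase 2C 39 gene. At stage 1 the median difference of TW-1-M from TW-1 was -1.39 in the 35 and -0.45 in the 140. At stage 3, 20 of the 35 (57.1%) were lower DEGs, beside 3.05% of all genes tested. The 35 had a median of -1.38, or -1.08 without TW-1-3 replicate 1. Of the 140, 8 (5.71%) were lower DEGs, and the medians were -0.80 and -0.18. The 25 members with TW-1-M-1 replicate 1 in between had a stage 1 difference of -1.49 and a stage 3 median of -1.46. Both values were more negative than those of the 35 and of the 140. Of the 25, 11 were lower DEGs at stage 3, a share between those of the 35 and the 140. Their median without TW-1-3 replicate 1, -0.80, also lay between. Some of these values thus followed the order of the replicates and others did not. In 134 of the 140 TW-1-3 replicate 1 was the highest of its group, and in 21 of the 35, beside 44.6% of all genes.

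The threshold that closed the list of members lay within a dense run of values. The last 3 members were LOC100781713 (F-box protein At1g67340), LOC100792122 and LOC100818925 (methylesterase 3-like), each with a smaller difference of 1.16. The next 3 genes were LOC100793948, LOC100797796 (a palmitoyl-acyl carrier protein thioesterase) and LOC100775731 (a peptide chain release factor), each at 1.15.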

How the data were processed

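Total RNA of 18 germinating seed samples was sequenced. Per the labels and the methods of the study, reads were filtered with Trimmomatic and mapped with TopHat, and the authors computed FPKM with cuffquant and cuffnorm against soybean assembly Glyma 1.01. The deposited table holds FPKM per gene, already scaled between libraries by the authors, and no counts, so no counting interval or floor was computed. Each column was matched to a sample by its title.

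Levels are log2(FPKM + 1), which understates changes of genes near 0. The filter was FPKM of at least 1 in 3 of 18 libraries. Stage 3 was tested with limma 3.58.1 in R 4.3.3 (lmFit, eBayes with a trend), which was tested on simulated data, and the rest was computed in Python 3.11.15. The members and lists were chosen with earlier results of these data known. Lists are patterns on descriptions taken from the additional files of the study, from which no values were used, and on RefSeq symbols (Glycine_max_v4.0). The chromosomes and gene order of that assembly served only to place the members. Genes were named by rule: the 10 leading annotated members, up to 4 of each list, the 5 highest at stage 1, up to 5 DEGs of each direction without overlap at stage 3, the 3 with the largest rise to stage 3, the 5 with the largest difference between the mutants, and 3 genes on each side of the threshold. Alternatives were a pseudocount of 0.1, other filters, quantile normalization, means, a replicate block, one fit over all 18 libraries and each library left out. Promoters and proteins were not analysed here.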

Additional observations from a re-analysis of the deposited data

How the results depend on the processing

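The number of genes past the threshold in both mutants was 363, 566 with a pseudocount of 0.1, 151 with means in place of medians, and between 164 and 548 when single libraries were left out. Of the 200 members, 103 were chosen again with means, and between 103 and 191 without single libraries. Between 106 and 199 were still past the threshold without single libraries, and 103 with means. With a pseudocount of 0.1 the medians of stage 3 against stages 2 and 1 in TW-1-M were -1.47 and -3.54. In TW-1 the members lower by 1 or more at stage 3 than at stage 2 numbered between 88 and 169 without single libraries, with medians between -1.92 and -0.76. At stage 3, DEGs lower in TW-1-M numbered 16 with a filter of FPKM 1 in every library, where 109 members were tested, and 69 with all 18 libraries in one fit, of which 17 also passed at the adjusted p. Without single libraries they numbered between 24 and 78, with medians between -1.35 and -0.38, and in every setting 0 members were higher DEGs. Over all genes the lower DEGs numbered 827, 1483 in the fit of all 18 libraries and between 372 and 1489 without single libraries. The cause of these shifts was not tested.

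With the replicate block 40 members were DEGs lower and 0 passed at the adjusted p. The deviations of same-numbered libraries from their group means correlated at -0.21, -0.58 and 0.20, and those of differently numbered ones at -0.27 to 0.48. Deviations from a mean of 3 libraries depend on one another, so this check cannot show whether the replicate numbers pair the samples. Among named genes, the log2 fold change at stage 3 changed sign without TW-1-3 replicate 1 for LOC100791834 (0.13, range without single libraries -0.85 to 0.13), LOC100809526 (0.19, range -0.84 to 0.19), NAC2 (0.068, range -0.76 to 0.068), GSTF5 (0.12, range -1.38 to 0.12), LOC100785476 (0.0008, range -0.88 to 0.0008) and LOC100776003 (-0.02). LOC100776003 was also at -0.04 without TW-1-3 replicate 3, and its range was -0.31, without TW-1-M-3 replicate 2, to 0.33. LOC100306181 was at -0.39 without TW-1-3 replicate 2 and at -0.14 without TW-1-M-3 replicate 2, in a range up to 1.46. None of these was a DEG. The motif and protein comparisons were not run, since no sequence table was given. Low FPKM values limit fold changes at stage 3, where between 3 and 8 members per library of TW-1-M were listed at 0.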

Other observations

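SGR1 and SGR2, which encode stay-green proteins of chlorophyll breakdown, were both members and were chosen here after their values were seen. SGR1 had 70.7, 38.4 and 86.6 FPKM in TW-1-1 and 24.05, 30.4 and 33.1 in TW-1-2, beside 8.14, 27.5 and 19 in TW-1-M-1 and 6.27, 5.85 and 4.65 in TW-1-M-2. SGR2 had 59.5, 28.9 and 61.4 FPKM in TW-1-1 and 21.7, 23.05 and 26.1 in TW-1-2, beside 12.51, 22.6 and 16.7 in TW-1-M-1 and 2.5, 4.75 and 3.78 in TW-1-M-2. Stages 1 and 2 were apart for both genes in both mutants, and unlike most members TW-1-2 replicate 1 was the lowest of its group for both.

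A pair of CML38-like genes, LOC100778709 and gene10968, relatives of the calcium-binding calmodulin and also chosen after their values were seen, were both DEGs lower in TW-1-M at stage 3, at -1.17 ± 0.41 and -1.38 ± 0.46 (SE, limma, adjusted p = 0.538 for both). Without TW-1-3 replicate 1 they were at -0.74, under the fold threshold, and -1.02. LOC100785797 and XLOC_007664 each had 56.6 FPKM in TW-1-2 replicate 1 and less than 20 FPKM in every library of TW-1-1, so that their median was lower at stage 2 while 1 library was higher.

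The 170 members matched to the RefSeq gene order lay on all 20 chromosomes, between 4 and 17 on each, and 4 pairs lay within 10 genes of each other. One pair joined LOC547494, the 24 kDa seed maturation protein, with LOC100818925, the methylesterase 3-like gene at the end of the list, 3 genes apart.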
